A study of Homo sapiens with 148 samples.

Results

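SOX1, SOX3, SOX4, SOX5, SOX6, SOX8, SOX10, SOX11 and SOX21 encode transcription factors of the SOX family that are best known from the developing nervous system and the neural crest. They were taken from the table of mean TPM (a level in which reads are divided by transcript length and scaled to an equal total in each sample) as the rows whose gene name is 1 of these symbols, a rule that uses no measured value. All 9 were found, each with a single entry, among 49085 gene names. Every SOX protein binds DNA through a high mobility group (HMG) box, which recognizes ACAAT and related sites in the minor groove and bends the DNA. The family is split into groups by the sequence of this box. SoxB1 factors (SOX1, SOX3 and their relative SOX2) keep neural progenitors undifferentiated, often together with POU proteins, and SoxB2 factors such as SOX21 counteract them. SoxC factors (SOX4 and SOX11) act later, in progenitors that become postmitotic neurons, and SOX4 and SOX11 are also used in the pancreas and in mesenchyme. SoxD factors (SOX5 and SOX6) have no activation domain of their own and work beside other SOX proteins in cartilage, in the oligodendrocyte lineage and in neurons. SoxE factors (SOX8 and SOX10) act in neural crest, Schwann cells, melanocytes and oligodendrocytes.

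The study followed H9, an established human embryonic stem cell line (hESCs), through a stepwise differentiation in suspended spheroids toward pancreatic islet organoids. RNA-seq was performed at 6 stages with 2 replicates each, 12 of the 148 samples of the series. All samples are wild type, and all descend from a single line, so the stages show 1 genetic background. The hESCs were undifferentiated. Definitive endoderm (DE) cells were collected at day 4 after Activin A, CHIR99021 and Y27632. Primitive gut tube-like (PGT) cells were collected at day 7, after KGF had been added. Pancreatic progenitors (PP) were collected at day 14, after KGF, Sant1, retinoic acid (RA), LDN193189, PdBU and Y27632. Stem cell-derived β-cell (SC-β) organoids were collected at day 35, after Sant1, RA, XXI, betacellulin, Alk5i II and T3. A stage named PH is given the same pancreatic differentiation treatment by the labels, but neither the labels nor the methods define it or give its day, and it is called PH here.

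The deposited table holds 1 mean per gene and stage. The spread between the 2 replicates, the read depth of each sample and a test between stages are therefore out of reach, and each level below is the authors' mean with no error. It cannot be said which neighbouring levels differ by more than their spread. Ratios between stages are log2((TPM + 1)/(TPM + 1)), and a gene was counted as higher or lower from 2-fold on that scale, which understates the difference of genes near or below 1 TPM. Stages also differed in their general scale. Over 13938 names at 1 TPM or more in every stage, rescaling to a common median took a shift out of the log2 ratios. The shift taken out was 0.48 from hESCs to DE, -0.15 from DE to PGT, -0.09 from PGT to PP and -0.22 from PP to PH. It was 0.27 from PP to SC-β, 0.52 from hESCs to SC-β and -0.50 from SC-β to PH. A SOX ratio of this size is thus no larger than the shift of the table as a whole. In bulk RNA, a larger number of cells of a type and more RNA per cell cannot be told apart.

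Marker genes of the cell types that the stages are named for, and of others, were read beside the SOX genes. The 4 pluripotency markers summed to 2016 TPM in hESCs and to 12.8 TPM in SC-β organoids, and all 4 definitive endoderm markers were highest in DE. The 7 endocrine genes summed to 296.9 TPM in PP, 195 TPM in PH and 4145 TPM in SC-β organoids. In PH the gut endoderm genes FOXA2, HNF4A and FOXA1 summed to 3.42 TPM, against 43.0 TPM in PP, and PDX1, which defines the pancreatic bud, was at 0.0173 TPM against 3.17 TPM in PP. These genes were thus low in PH. Of the endocrine genes there, CHGA was at 70.0 TPM, SST at 65.8, GCG at 27.2 and CHGB at 19.6. INS was at 6.86 TPM, NEUROD1 at 3.71 and PCSK1 at 1.85. Of these 7, 6 were at least 2-fold lower in PH than in SC-β organoids and 0 higher. The shares of names at 1 TPM or more were 28.1% and 4.6%. PTF1A, which acts in the pancreatic bud and also in inhibitory neurons, was at 1.02 TPM in PP and 7.61 TPM in PH. The 15 neuronal genes summed to 1811 TPM in PH and to 207.4 TPM in PP. Lists of other cell types are given beside the SOX genes they move with.

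The SOX genes are compact, with the exception of the SoxD group. In the GENCODE annotation (version 44, GRCh38, equal to hg38), SOX1 (ENSG00000182968.5, chromosome 13, 112067149 to 112071706, forward strand), SOX3 (ENSG00000134595.9, chromosome X, 140502985 to 140505069, reverse strand) and SOX21 (ENSG00000125285.6, chromosome 13, 94709622 to 94712545, reverse strand) each consist of 1 exon. The same holds for SOX4 (ENSG00000124766.7, chromosome 6, 21593751 to 21598619, forward strand) and SOX11 (ENSG00000176887.7, chromosome 2, 5692384 to 5701385, forward strand). SOX8 (ENSG00000005513.10, chromosome 16, 981770 to 986979, forward strand) has 3 exons and SOX10 (ENSG00000100146.20, chromosome 22, 37970686 to 37987422, reverse strand) has 4. SOX5 (ENSG00000134532.20, chromosome 12, 23529504 to 24562544, reverse strand) spans 1033041 bp with 15 exons in its canonical transcript, and SOX6 (ENSG00000110693.19, chromosome 11, 15966449 to 16739591, reverse strand) spans 773143 bp with 16. Some of the genes overlap others. SOX10 lies inside POLR2F on the opposite strand, SOX21 lies inside SOX21-AS1 on the opposite strand, and SOX6 overlaps C11orf58 on the opposite strand. The labels name a strand-specific library, but whether strand was used in counting is not given in the sources used here, so a part of the reads of such pairs could be assigned to the wrong gene.

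Sequences upstream of the start sites are shown for 4 of the genes, because SOX1 and SOX3 are the pair with the largest relative increase from PP to PH, SOX21 shares its start region with an antisense transcript that has similar levels, and SOX5 holds copies of the extended SOX site. RefSeq promoter windows (GRCh38.p14, 250 bases before to 50 after the start) were matched for 6 of the 9 genes. Only the 250 bases before the start are printed, 5′ to 3′ on the strand of the gene, at chr13:112066899-112067148 (SOX1, forward), chrX:140505070-140505319 (SOX3, reverse), chr13:94712546-94712795 (SOX21, reverse) and chr12:24562492-24562741 (SOX5, reverse). Capitals mark a match to ACAATG (SOX5) or TATAAA (SOX21), in both cases read on the opposite strand.
SOX1: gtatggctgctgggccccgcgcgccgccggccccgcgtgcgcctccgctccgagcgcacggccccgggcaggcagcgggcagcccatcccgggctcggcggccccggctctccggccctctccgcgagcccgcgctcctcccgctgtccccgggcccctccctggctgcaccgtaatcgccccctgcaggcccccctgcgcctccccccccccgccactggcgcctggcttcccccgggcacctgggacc
SOX3: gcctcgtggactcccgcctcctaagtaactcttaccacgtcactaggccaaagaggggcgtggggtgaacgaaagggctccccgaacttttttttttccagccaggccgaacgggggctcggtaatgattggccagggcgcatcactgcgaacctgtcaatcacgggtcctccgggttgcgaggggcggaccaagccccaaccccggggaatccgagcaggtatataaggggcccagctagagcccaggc
SOX21: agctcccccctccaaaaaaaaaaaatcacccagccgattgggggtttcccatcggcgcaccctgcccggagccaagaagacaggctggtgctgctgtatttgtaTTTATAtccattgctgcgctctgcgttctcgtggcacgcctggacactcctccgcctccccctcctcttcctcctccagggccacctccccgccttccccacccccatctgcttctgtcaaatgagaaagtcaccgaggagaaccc
SOX5: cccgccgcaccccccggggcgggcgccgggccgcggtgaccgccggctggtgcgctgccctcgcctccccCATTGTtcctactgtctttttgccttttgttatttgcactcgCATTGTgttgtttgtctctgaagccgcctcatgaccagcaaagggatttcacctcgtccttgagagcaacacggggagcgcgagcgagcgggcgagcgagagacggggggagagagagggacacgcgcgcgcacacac

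Short motifs were searched on both strands of the 300-base windows and of all 35116 RefSeq promoter windows. The core of a SOX site, ACAAT, was found in 27.4% of all windows. The core followed by a G (the extended site ACAATG) was found in 10.8%. A related site that does not contain the core, ACAAAG, was found in 16.1%, and the TATA box letters TATAAA in 11.5%. SOX5 has ACAATG from -180 to -175 and again from -138 to -133, counted from the start site. The SOX21 window has TATAAA from -146 to -141 on the opposite strand, the strand of SOX21-AS1. This match lies between the SOX21 start and a RefSeq start of SOX21-AS1, 171 bases upstream, and was not assigned to either gene. Of the 5 windows of SOX6, 2 also hold ACAATG (from -114 to -109 and from -116 to -111) and 3 hold TATAAA. None of the 4 motifs matched in the windows of SOX1, SOX3 and SOX4, while ACAAT matched in each of the SOX6 windows. The search took exact letters only and does not show that a TATA box is absent. The printed SOX3 sequence holds tatataag near its end, which TATAAA does not match. The SOX1 window is 80% G and C and holds 37 CpG dinucleotides, against a median of 14 over all windows. The SOX5 window holds 29, SOX3 20, SOX21 15 and SOX4 8. These are matches to letters and say nothing about binding.

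Most of the SOX genes had their highest mean level in PH. This was the case for 7 of 9 (SOX1, SOX3, SOX21, SOX4, SOX11, SOX6 and SOX8), whereas SOX5 and SOX10 were highest in PP. Of the 28202 names that reached 1 TPM in a stage, 13.5% were highest in PH, 4.66% in PP, 38.8% in SC-β organoids, 12.5% in hESCs, 20.6% in DE and 9.94% in PGT. The PH level of SOX1 was 11.7 times that of SC-β organoids, the next stage, and that of SOX3 was 4.17 times its PP level. For SOX11 the PH level was 1.93 times that of SC-β organoids. The margin was 1.37 times for SOX21 over PP and 1.30 times for SOX8 over hESCs. SOX4 was at 192.5 TPM in PH and 183.1 TPM in PGT, and SOX6 at 30.7 TPM in PH and 30.1 TPM in SC-β organoids. With the spread of replicates unknown, the order is not clear for these small margins. Over the other 5 stages, without PH, SOX3, SOX21, SOX5 and SOX10 were highest in PP, SOX1, SOX11 and SOX6 in SC-β organoids, SOX4 in PGT and SOX8 in hESCs.

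**Figure D1:**
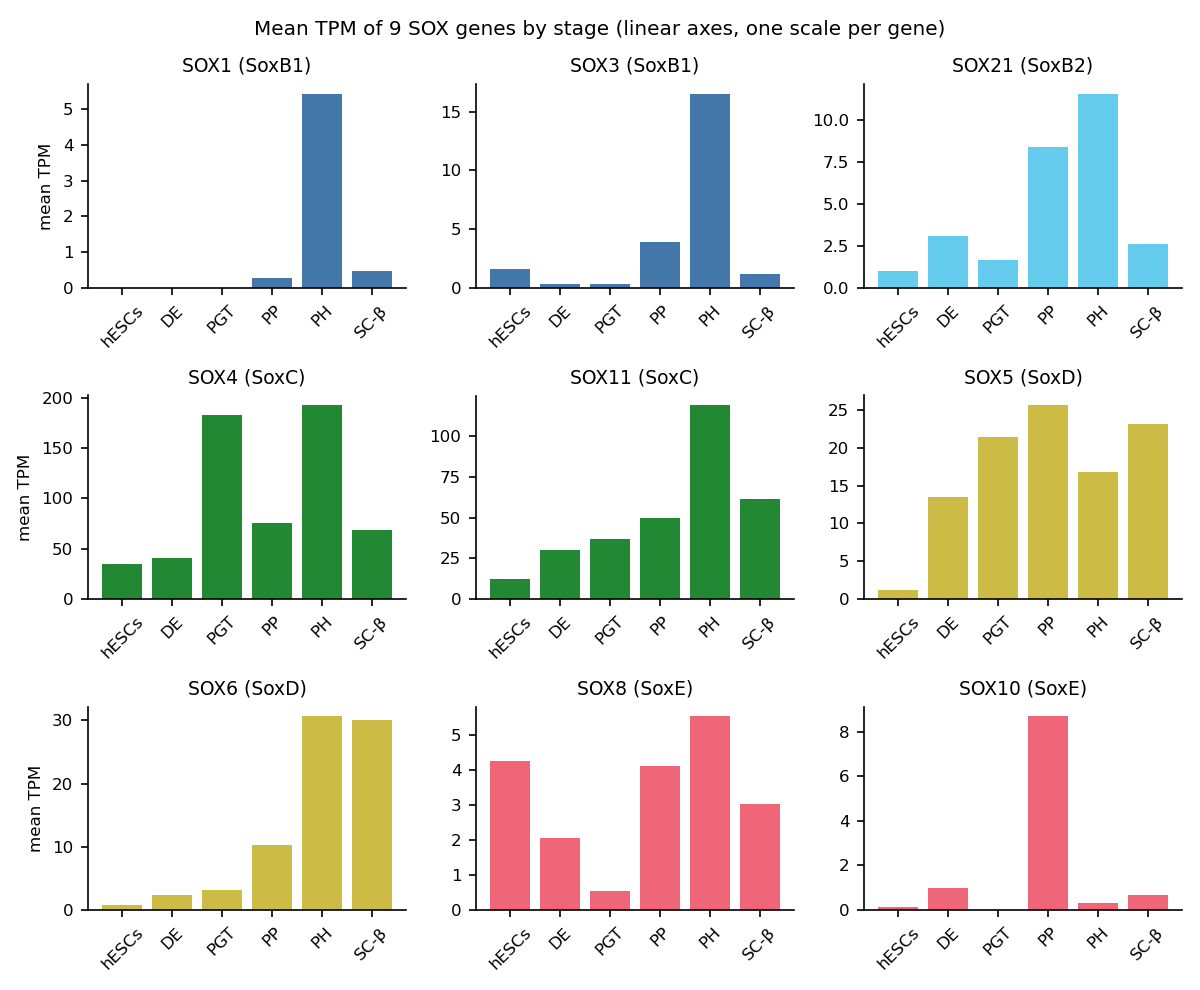
Mean TPM of each of the 9 SOX genes (vertical axis, linear and scaled separately for each gene) in the 6 stages (horizontal axis), colored by SOX group; each bar is the authors' mean of 2 replicates and has no error bar. Bars are tallest in PH for 7 genes and in PP for SOX5 and SOX10, and the SOX10 bar of 8.69 TPM in PP stands alone.

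SOX1 is the most restricted of the SoxB1 genes and marks the neural plate and early neural tube. It was listed at 0 in hESCs and PGT, and was at 0.0103 TPM in DE, 0.290 TPM in PP, 5.42 TPM in PH and 0.462 TPM in SC-β organoids. PH is thus the sole stage in which SOX1 passed 1 TPM, at 18.7 times its PP level, and 23.4% of all names had a higher level there. Its log2 ratio was 2.32 from PP to PH and 2.14 from SC-β organoids to PH.

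SOX3, an X-linked gene used in the neural tube, hypothalamus and pituitary, was present at more stages. Its mean level was 1.60 TPM in hESCs, 0.378 at DE, 0.376 at PGT, 3.95 at PP, 16.5 at PH and 1.15 in SC-β organoids. It was low in DE and PGT, returned in PP (log2 ratio to PGT 1.85), and was higher again in PH (log2 ratio to PP 1.82). From PP to SC-β organoids it was lower, with a log2 ratio of -1.20.

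The SoxB1 RNA was mostly SOX2 at every stage, which is not among the 9 genes and maintains both pluripotent cells and neural progenitors. SOX2 was at 132.8 TPM in hESCs, 22.4 at DE, 1.70 at PGT, 68.2 at PP, 108.7 at PH and 50.9 in SC-β organoids. Its share of the summed TPM of SOX1, SOX2 and SOX3 was 98.8% in hESCs, 81.9% in PGT, 94.1% in PP, 83.2% in PH and 96.9% in SC-β organoids. SOX3 made up 5.46% of this sum in PP and 12.6% in PH, and SOX1 reached 4.15% in PH. From PP to PH the log2 ratio of SOX2 was 0.67, below 2-fold, so that the makeup of SoxB1 RNA in PH differed from that of PP through SOX1 and SOX3.

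SOX21, the SoxB2 gene, promotes the exit of neural progenitors from the cell cycle. Its mean level was 1.00 TPM in hESCs, 3.10 at DE, 1.66 at PGT, 8.38 at PP, 11.5 at PH and 2.62 in SC-β organoids. Unlike SOX1 and SOX3, it was close between PP and PH, with a log2 ratio of 0.42 that is under 2-fold. It was higher in PP than in PGT by 1.82 on the log2 scale and lower in SC-β organoids than in PP (log2 ratio -1.37).

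SOX21-AS1, a noncoding transcript on the opposite strand, followed SOX21 at a fairly even proportion. The annotations place its start differently. Its RefSeq start used here lies 171 bases upstream of the SOX21 start, whereas its GENCODE gene runs from 94703454 to 94803430 and contains SOX21. The SOX21-AS1 levels are those under its name in the table. Its level was 0.564 TPM in hESCs, 1.63 at DE, 0.563 at PGT, 3.50 at PP, 5.42 at PH and 1.46 in SC-β organoids. The ratio of SOX21-AS1 to SOX21 stayed between 0.338 in PGT and 0.563 in hESCs. None of the 2924 exon bases of SOX21 lies in a GENCODE exon of any SOX21-AS1 transcript. The RefSeq promoter windows of both genes share 270 bases. SOX2-OT, the long noncoding transcript whose gene contains SOX2, was less tied to its partner. Its level was 1.30 TPM in undifferentiated cells and 25.7 TPM in PH, or 0.00979 and 0.237 times the SOX2 level.

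**Figure D2:**
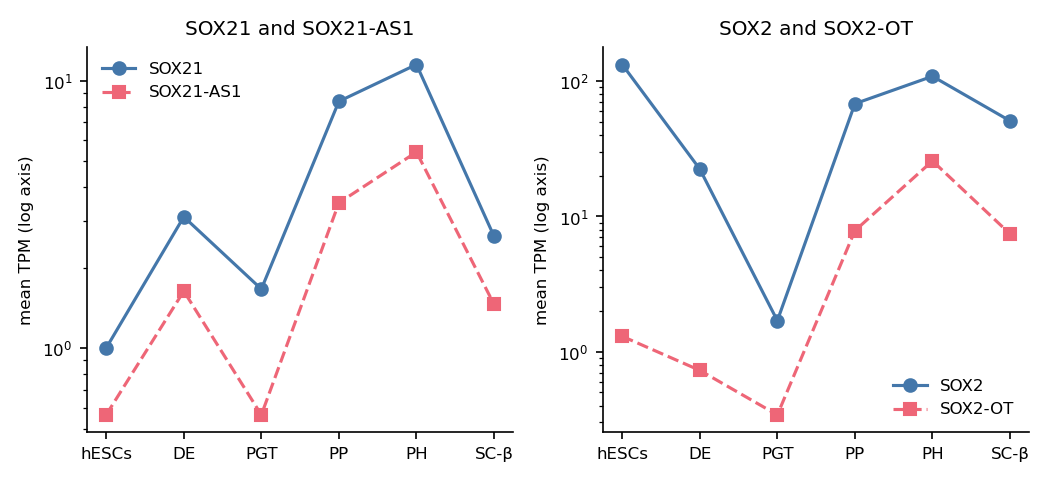
Mean TPM on a log axis in the 6 stages for SOX21 and SOX21-AS1 (left) and for SOX2 and SOX2-OT (right); circles and solid lines are the coding gene, squares and dashed lines the noncoding transcript, and the lines only join stages. The SOX21 pair runs nearly parallel, while the ratio of SOX2-OT to SOX2 is lowest in hESCs, at 0.00979, and highest in PH, at 0.237.

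Neural genes outside the SOX family were read beside the SoxB genes. Of 6 POU genes read, 4 were highest in PH and at least 2-fold higher there than in either PP or SC-β organoids. These were POU3F1, POU3F2, POU3F3 and POU3F4, POU factors of the nervous system that bind DNA beside SoxB1 proteins. Of names at 1 TPM or more, 11.5% were higher in PH than in PP, and 4.6% higher than in SC-β organoids. POU2F1 was at 13.5 TPM in PP, 11.4 in PH and 20.3 in SC-β organoids. POU3F3 was at 0.855 TPM in PP, 30.4 in PH and 0.805 in SC-β organoids, and POU3F2 was at 5.87, 24.7 and 2.25 TPM. POU5F1, the partner of SOX2 in pluripotent cells, was at 0.425 TPM in PH. Of 14 neural progenitor genes, 10 were higher in PH than in PP and 0 were lower. The shares of names at 1 TPM or more were 11.5% and 12.8%. HES5, a Notch target of neural progenitors, was at 0.0882 TPM in PP, 109.8 in PH and 1.51 in SC-β organoids, and ZIC1 of the dorsal neural tube was at 17.2, 173 and 73.7 TPM. Among genes used in the forebrain and eye, SIX3 and OTX2 were at 0.0512 and 0.0554 TPM in PH, while LHX2 was at 0.174 TPM in PP and 3.71 in PH, and PAX6, which other neural regions also use, at 2.27 and 17.2 TPM.

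SOX4 and SOX11, the SoxC genes, had the highest levels of the 9 in PH. SOX4 acts in neurons and also in endocrine precursors of the pancreas. Its mean level was 34.5 TPM in hESCs, 41.1 at DE, 183.1 at PGT, 75.5 at PP, 192.5 at PH and 68.4 in SC-β organoids. SOX4 therefore had a pair of high stages, PGT and PH, with lower levels on either side of PGT. The log2 ratio was 2.13 from DE to PGT, -1.27 from PGT to PP and 1.34 from PP to PH. In PH, 0.524% of all names had a higher level than SOX4, and in PGT 0.831%.

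SOX11, which is found in most newly formed neurons, lacked the PGT maximum. It was at 12.4 TPM in hESCs, 29.8 at DE, 36.7 at PGT, 49.7 at PP, 119 at PH and 61.6 in SC-β organoids. Each stage up to PH was above the one listed before it, with log2 ratios of 1.20 from hESCs to DE and 1.24 from PP to PH. The ratio of SOX4 to SOX11 was 4.99 in PGT and between 1.11 and 2.78 in the other 5 stages. SoxC RNA summed to 219.8 TPM in PGT, 125.3 in PP, 311.5 in PH and 130.1 in SC-β organoids.

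Genes of postmitotic neurons had their highest levels in the same stage as SOX11. Of 15 neuronal genes, 14 were higher in PH than in PP, all except NEFM, and 13 were highest in PH. Among names at 1 TPM or more, 11.5% were higher at this step and 13.5% were highest in PH. TUBB3, a neuronal tubulin, was at 76.3 TPM in PP, 544.8 in PH and 54.3 in SC-β organoids. STMN2, a neuronal microtubule regulator, was at 4.48, 301 and 31.7 TPM, and DCX, a microtubule protein of young neurons, at 12.0, 169 and 24.4 TPM. PGT, the other stage with high SOX4, had a neuronal sum of 135.3 TPM and a gut endoderm sum of 168.5 TPM, against 3.42 TPM of the latter in PH. The 9 mesenchymal genes were also all higher in PH than in PP, with sums of 1014 and 179 TPM, and their sum was 2015 TPM in SC-β organoids, where SOX11 was lower than in PH. Their part in the SOX levels was not tested.

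SOX5 and SOX6, the SoxD genes, did not follow each other in the late stages. SOX5 was at 1.21 TPM in hESCs, 13.5 at DE, 21.5 at PGT, 25.7 at PP, 16.8 at PH and 23.1 in SC-β organoids. It was thus low in hESCs and within 13.5 to 25.7 TPM from DE on, and it is the sole gene of the 9 with a DE to hESC log2 ratio above 2, at 2.72. From PP to PH its log2 ratio was -0.58, which is below 2-fold.

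SOX6 was at 0.851 TPM in hESCs, 2.32 at DE, 3.14 at PGT, 10.2 at PP, 30.7 at PH and 30.1 in SC-β organoids. It was higher in PP than in PGT (log2 ratio 1.44) and higher than in PP in both PH (1.50) and SC-β organoids (1.47). It is the only gene of the 9 that was at least 2-fold higher in SC-β organoids than in PP. SOX5 exceeded SOX6 by a ratio of 6.84 in PGT and 2.52 in PP, while SOX6 was the more abundant in PH and SC-β organoids, where the ratio of SOX5 to SOX6 was 0.548 and 0.767. The summed SoxD level was 2.06 TPM in hESCs, 35.9 in PP, 47.5 in PH and 53.3 in SC-β organoids.

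Cartilage, where SOX5 and SOX6 act with SoxE proteins, was represented by 11 genes. COL2A1, the main cartilage collagen, was at 92.9 TPM in PGT, 364.3 in PP, 26.2 in PH and 132.7 in SC-β organoids. In PH, 4 of the 11 (COL2A1, COL9A1, COL11A2 and HAPLN1) were lower than in PP and 1 (MATN4) was higher. In SC-β organoids, 2 (ACAN and COL11A1) were higher than in PP and 3 were lower. Among names at 1 TPM or more, 11.5% were higher and 12.8% lower from PP to PH. From PP to SC-β organoids, 20.7% were higher and 1.84% lower. The 1 and the 2 of 11 that were higher are thus near the background. COL11A1, a fibrillar collagen gene, was at 16.7 TPM in PP, 26.3 in PH and 57.1 in SC-β organoids. ACAN, the cartilage proteoglycan, was at 0.485 TPM in PP, 0.318 in PH and 5.59 in SC-β organoids. Of 9 oligodendrocyte genes, 1 was higher (PDGFRA) and 1 lower (MBP) in PH than in PP, which is near the same shares. In SC-β organoids, 4 were higher (PDGFRA, CSPG4, NKX2-2 and MYRF) and 0 lower than in PP, against the shares of 20.7% and 1.84%. NKX2-2, which was also listed here as a pancreatic progenitor gene, was at 0.493 TPM in PP and 2.26 in SC-β organoids. MYRF was already at 13.2 TPM in DE and 18.8 in PGT. PDGFRA, which mesenchyme also expresses, was at 11.9 TPM in PP, 58.1 in PH and 205.3 in SC-β organoids. OLIG1 and OLIG2, which define the lineage, were below 1 TPM at every stage.

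SOX10 and SOX8, the SoxE genes, differed from each other in PP and PH. SOX10, which specifies glial and pigment cells of the neural crest, was listed at 0 in PGT and was at 0.140 TPM in hESCs, 0.988 in DE, 8.69 in PP, 0.318 in PH and 0.649 in SC-β organoids. PP was the only stage in which it passed 1 TPM. The level in PH was 0.0366 times that in PP (log2 ratio -2.88) and the level in SC-β organoids 0.0747 times (log2 ratio -2.55). These comparisons share the single PP mean, in which a value of 1 replicate cannot be told from a value of both.

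SOX8, which overlaps SOX10 in function in crest and glia and has a role in the testis, was at 4.24 TPM in hESCs, 2.06 at DE, 0.555 at PGT, 4.12 at PP, 5.53 at PH and 3.01 in SC-β organoids. It was higher in PP than in PGT by a log2 ratio of 1.72 and differed by less than 2-fold between PP and PH and between PP and SC-β organoids. SOX8 therefore made up the larger part of the pair in every stage but PP, where the ratio of SOX8 to SOX10 was 0.474, against 17.4 in PH and 30.4 in hESCs. SOX9, the third SoxE gene and a factor of pancreatic progenitors as well as crest and cartilage, was at 5.90 TPM in PGT, 23.7 in PP, 27.2 in PH and 25.2 in SC-β organoids.

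Genes of the neural crest and its Schwann cell and pigment descendants had their highest level in PP for 5 of 14, in PH for 5 and in SC-β organoids for 4. Of the 14, 10 were higher in PP than in PGT and 0 were lower. The shares of names at 1 TPM or more were 6.3% and 7.46%. Between PP and PH, 4 were lower (ERBB3, S100B, MITF and NGFR), 2 were higher (PAX3 and PAX7) and 8 differed by less than 2-fold. Over names at 1 TPM or more, 12.8% were lower and 11.5% higher at this step, so that 2 of 14 higher is near the background. ERBB3, the neuregulin receptor of Schwann cells and their precursors, was at 82.0 TPM in PP and 11.1 TPM in PH. S100B, a calcium-binding protein of glia, was listed at 0 in PGT and was at 28.7 TPM in PP, 0.910 in PH and 3.93 in SC-β organoids. MITF, the pigment cell factor, was at 2.09, 13.8, 1.52 and 8.35 TPM in the same order, whereas DCT, a pigment enzyme gene, was at 0.471 TPM in PP, 1.35 in PH and 20.8 in SC-β organoids. In contrast, TFAP2B, a factor of early crest and of neurons, was at 37.0 TPM in PP and 37.4 in PH, FOXD3, a factor of early crest, at 9.72 and 10.5 TPM, and PAX3, shared by crest and dorsal neural tube, at 30.9 and 97.3 TPM. POLR2F, the RNA polymerase subunit gene that contains SOX10 on the other strand, was at 25.2 TPM in PP and 16.9 TPM in PH.

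**Figure D3:**
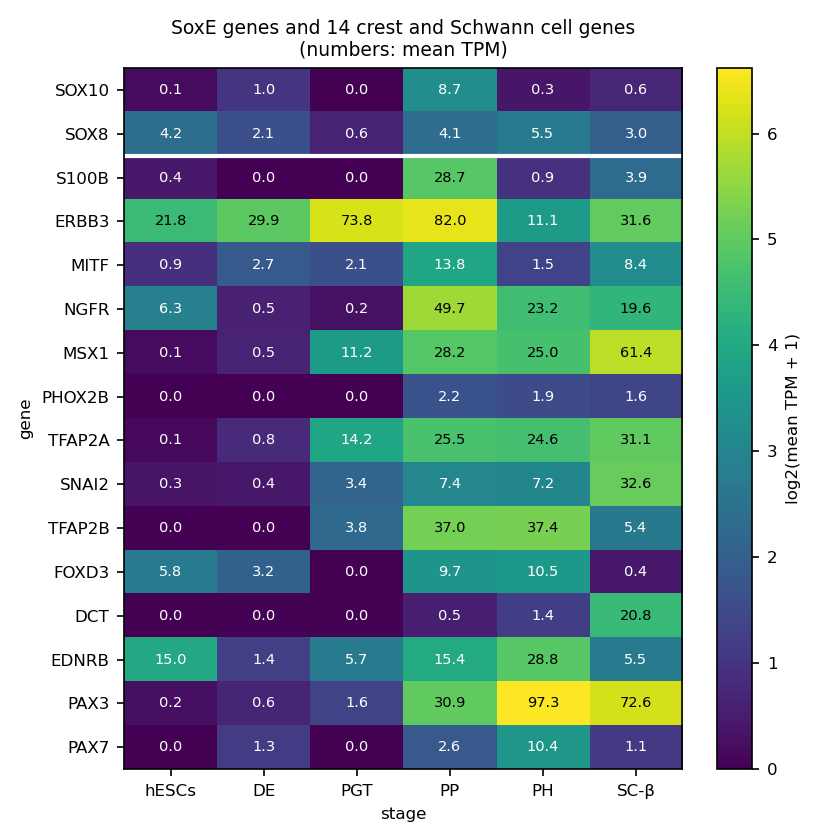
Mean TPM (number in each cell) and log2(mean TPM + 1) (color) of SOX10, SOX8 and 14 neural crest and Schwann cell genes (rows, the 14 ordered by their log2 ratio from PP to PH, lowest first) in the 6 stages (columns). SOX10, S100B, ERBB3, MITF and NGFR are highest in PP and lower in PH, while PAX3 and PAX7 at the bottom are highest in PH.

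Set side by side, the stage steps differed in how many of the 9 SOX genes they separated. From hESCs to DE, 3 were higher (SOX21, SOX11 and SOX5) and 0 lower, where 12.9% of all names were higher and 2.55% lower. Among names at 1 TPM or more in 1 of both stages, these shares were 28.2% and 5.55%, so that 3 of 9 is near the background. After rescaling to a common median, SOX5 alone was higher, and SOX3 and SOX8 were lower, with log2 ratios of -1.15 and -1.14. From DE to PGT, 1 was higher (SOX4) and 0 lower, with shares of 2.3% and 4.92% over all names, or 4.94% and 10.6% of names at 1 TPM or more. From PGT to PP, 5 were higher (SOX3, SOX21, SOX6, SOX8 and SOX10, the last listed at 0 in PGT) and 1 was lower (SOX4). Here 2.74% of all names and 6.3% of those at 1 TPM or more were higher, and 3.25% and 7.46% were lower. The median log2 ratio of the 9 was 1.44 at this step, against -0.10 over names at 1 TPM or more.

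PP was compared with both later columns. From PP to PH, 5 were higher (SOX1, SOX3, SOX4, SOX11 and SOX6) and 1 lower (SOX10), where 5.14% of all names and 11.5% of those at 1 TPM or more were higher, and 5.73% and 12.8% were lower. The median of the 9 log2 ratios was 1.24, against -0.10 over names at 1 TPM or more. From PP to SC-β organoids, 1 was higher (SOX6) and 3 lower (SOX3, SOX21 and SOX10), while 10.6% of all names were higher and 0.939% lower, or 20.7% and 1.84% of those at 1 TPM or more. The median was -0.14 for the SOX genes and 0.45 for names at 1 TPM or more. Compared directly, 4 were higher in PH than in SC-β organoids (SOX1, SOX3, SOX21 and SOX4) and 0 lower, with shares of 2.41% and 14.7% of all names, or 4.6% and 28.1% of those at 1 TPM or more. SOX11 and SOX8 passed 2-fold as well after rescaling, with log2 ratios of 1.43 and 1.10. From hESCs to SC-β organoids, 3 were higher (SOX11, SOX5 and SOX6) and 0 lower, with shares of 22.2% and 3.7% of all names, or 42.4% and 7.08% of those at 1 TPM or more, again near the background. These comparisons reuse the same stage means and are not independent of each other.

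**Figure D4:**
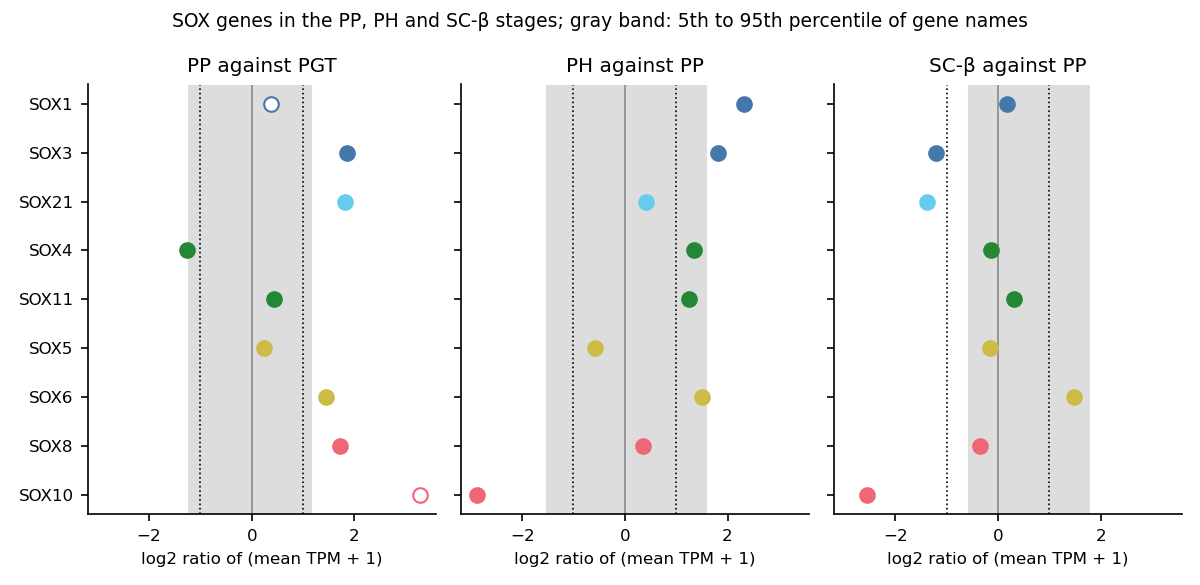
Log2 ratio of (mean TPM + 1) for the 9 SOX genes in PP against PGT, PH against PP and SC-β organoids against PP; dotted lines mark 2-fold, the gray band spans the 5th to 95th percentile of names at 1 TPM or more in either stage, and open circles are genes listed at 0 in 1 of both stages. SOX1, SOX3 and SOX10 lie outside the band in PH against PP, and SOX3, SOX21 and SOX10 lie below it in SC-β organoids against PP.

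The share of the 9 genes in all SOX RNA also varied by stage. The summed TPM of 19 SOX genes was 231.8 in hESCs, 264.2 at DE, 304.1 at PGT, 317.7 at PP, 563 at PH and 305.4 in SC-β organoids. The 9 genes held 24.2% of it in hESCs, 35.3% at DE, 81.2% at PGT, 58.7% at PP, 70.7% at PH and 62.6% in SC-β organoids. SOX4 and SOX11 together held 72.3% in PGT and 55.3% in PH, and so most of the SOX RNA in both stages was SoxC. The low shares in hESCs and DE go with SOX2 in the former and with SOX17, the endodermal SoxF factor, in the latter, at 96.1 TPM. Of the other 10 SOX genes, 0 differed by 2-fold or more between PP and PH on the scale used. Of names at 1 TPM or more, 11.5% were higher and 12.8% lower at this step. SOX17 and SOX13 came close to the limit, with log2 ratios of -0.99 and -0.92. SOX15 was at 2.16 TPM in PP and 0.873 TPM in PH. Genes below 1 TPM in both stages, such as SOX14, SOX18 and SOX30, could not pass the limit.

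**Figure D5:**
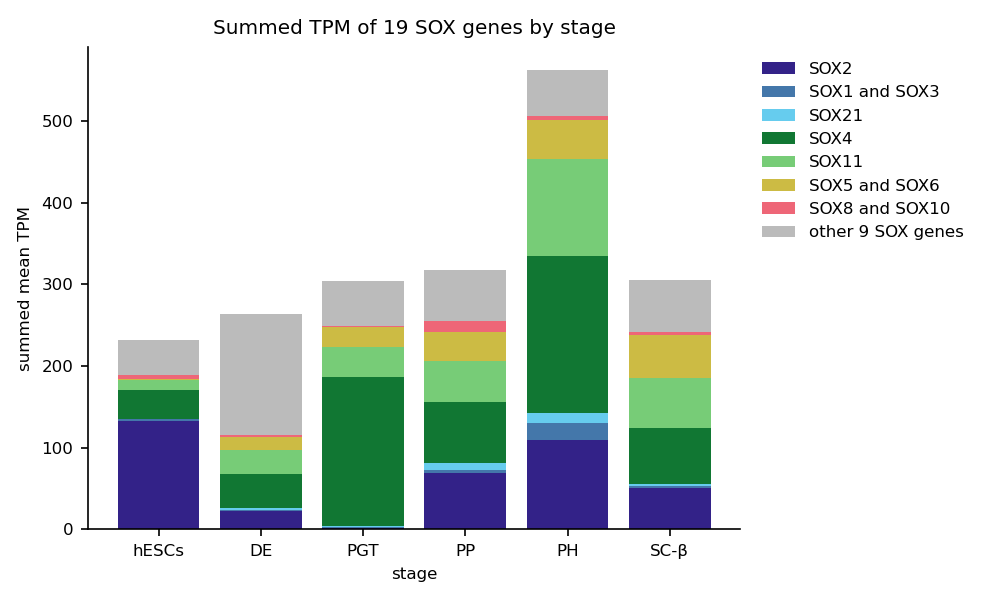
Summed mean TPM of 19 SOX genes (vertical axis, linear from 0) in the 6 stages, stacked by gene or pair of genes, with SOX2 and the other 9 SOX genes shown for comparison. The PH bar reaches 563 TPM, and SOX4 and SOX11 form its largest section, while SOX2 forms most of the hESC bar.

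The SOX genes varied together to different degrees. Over the 6 stages, Pearson's r of log2(TPM + 1) was above 0 for 32 of the 36 pairs, with a median of 0.54. These points share their libraries and their scale, and 6 points bear little weight. It was 0.92 for SOX11 and SOX6, 0.90 for SOX1 and SOX3, 0.82 for SOX3 and SOX21, 0.72 for SOX4 and SOX11, 0.65 for SOX5 and SOX6, 0.32 for SOX8 and SOX10, and lowest, at -0.28, for SOX5 and SOX8. Without PH, the value for SOX1 and SOX3 was 0.51 and the median over pairs 0.49.

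Names with the most similar pattern were listed for the 6 SOX genes that reached 10 TPM. They were taken from 12215 names at that level, with names of genomic clones and the gene itself left out. For SOX3 these were KIRREL2, NPRL2 and GBX2, with r of 0.992, 0.991 and 0.990. GBX2, a homeobox gene of the anterior hindbrain, was at 3.75 TPM in PP and 31.3 in PH. For SOX21 they were ZMAT5, STMN3 and PDIK1L (0.966, 0.961 and 0.960), and for SOX4 they were SNORA53, TM2D3 and YIPF3 (0.998, 0.992 and 0.991). For SOX11 they were VPS9D1, MVB12B and PPP1R37 (0.998, 0.997 and 0.997), for SOX5 CDK5RAP3, TTC13 and CASKIN2 (0.9996, 0.995 and 0.994), and for SOX6 ZC2HC1A, RIMBP2 and ZNF462 (0.995, 0.992 and 0.991). The number of similar names differed widely between genes, since r passed 0.95 for 6 names with SOX21, 13 with SOX4 and 15 with SOX3, but for 155 with SOX6, 174 with SOX11 and 177 with SOX5. By Euclidean distance instead of r, the 3 nearest names were others for all 6 genes, apart from GBX2 for SOX3. With r over the 5 stages without PH, SOX4 kept SNORA53 and SOX5 kept CDK5RAP3, and the other 4 genes kept none of their 3 names.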

How the data were processed

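RNA-seq of 12 samples at 6 stages was used, among 148 samples in all, which otherwise hold chromatin assays not analysed here. The authors isolated RNA with Trizol, and the labels name both ribosomal RNA removal with RiboMinus and a TruSeq Stranded mRNA kit. Reads were aligned to hg38 with HISAT2 (version 2.2.0) and converted to TPM with StringTie (version 2.1.6), and the deposited TPM values are the authors' means over 2 replicates per stage. The annotation is not given in the sources used here. TPM keeps no depth, so no interval or detection limit was computed. Because TPM shares a fixed total, each value depends on the abundance of all other RNA.

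The table holds 50451 entries under 49085 names, and the entries of 231 repeated names were summed. Log2 ratios used a pseudocount of 1 TPM and a 2-fold limit, with no test. Stages were matched to the columns by their names. The shares of names past the limit were computed over all names and again without names below 1 TPM in both stages. The SOX genes and the marker lists were chosen with earlier results of these data known. Names printed are the 9 SOX genes, the other SOX genes, noncoding transcripts named after a SOX gene, the 3 names most alike to each SOX gene at 10 TPM or more, and from each list up to 4 genes highest in PH and those highest in a stage discussed; further list genes were named after their values were seen. Gene positions are from GENCODE version 44 and promoter windows from RefSeq. Some genes of the lists are not reported here, and counts and sums were computed without them. Protein sequences were not used here. The calculations were tested on simulated data. The alternatives were a pseudocount of 0.1, a 4-fold limit, rescaling to a common median, totals without the 100 most abundant names, names at 1 TPM or more only, the highest entry of a repeated name, leaving out PH, and Euclidean distance. Python 3.11.15, numpy 2.4.6, pandas 2.3.3 and matplotlib 3.10.9 were used.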

Additional observations from a re-analysis of the deposited data

How the results depend on the processing

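No value has an error, a depth or a test, since the deposited columns are means, and leaving out a replicate was not possible. No paired analysis was possible because each stage's 2 replicates are averaged in the table. Of 63 log2 ratios of the 9 SOX genes, 27 were at least 2-fold. Among 368 alternative values of these ratios, 329 stayed on their side of the limit. This was fixed in advance for 53 of them with the filter at 1 TPM and 63 with the choice of entry. It was also fixed at the 4-fold limit for every ratio already under 2-fold. Of the rest, 18 fell below the limit (16 of them at the 4-fold limit) and 21 passed it. No ratio of at least 2-fold changed sign. The 4-fold limit, the filter and the choice of entry leave each ratio as it was, so they could not change a sign. The sign changed in 4 alternative values under 2-fold, such as that of SOX4 from hESCs to DE, which was -0.22 after rescaling to a common median.

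With a pseudocount of 0.1, 5 SOX genes were higher in DE than in hESCs and 2 lower, 2 were lower in PGT than in DE, and 6 were higher in SC-β organoids than in hESCs. After rescaling, 1 was higher and 2 were lower in DE than in hESCs. Without the 100 most abundant names, 2 were lower in DE than in hESCs and 2 were lower in PGT than in DE. At a 4-fold limit, which by construction can only lower the counts, 1 was higher in DE than in hESCs, 1 was higher and 0 lower in PP than in PGT, 1 was higher in PH than in PP, 0 were higher and 1 lower in SC-β organoids than in PP, and 2 were higher in PH than in SC-β organoids. The cause of the other differences was not tested. The number of SOX genes highest in PH was 7 after rescaling and without the 100 most abundant names. The filter at 1 TPM and the choice of entry could not alter the counts of the 9 genes.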

Other observations

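Of the 10 SOX genes outside the 9 described, SOX9 and SOX14 had their highest level in PH, 3 in hESCs, 4 in DE and 1 in PGT. SOX17, an endoderm and endothelial factor, was at 3.22 TPM in hESCs, 96.1 in DE, 5.88 in PGT and 0.985 in PP, and was listed at 0 in PH. SOX7, its SoxF relative, passed 1 TPM only in PGT, at 2.89 TPM. SOX15, the SoxG gene, was at 12.6 TPM in hESCs and at or below 2.39 TPM in the other 5 stages. SOX12, the third SoxC gene, was at 6.74 TPM in hESCs and between 12.7 and 20.4 TPM in the other 5 stages, without the PH maximum of SOX4 and SOX11. SOX13, the third SoxD gene, was lowest in PH, at 11.8 TPM, where SOX6 was highest. SOX14, SOX18 and SOX30 stayed below 0.2 TPM in all 6 stages. SOX9-AS1, a noncoding transcript named after SOX9, was at 4.81 TPM in PP and 2.98 TPM in PH.

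The 4 endothelial genes summed to 198.7 TPM in DE, nearly all of it VWF at 191 TPM, and to between 2.28 and 20.8 TPM in the other 5 stages.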
